A study of Homo sapiens with 22 samples.

Results

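The 10 genes LAPTM5, CD14, CLDN5, EGFL7, CDH5, VWF, TEK, MB, TTN and NEB were followed through H2110 xenografts as markers of tissue other than the carcinoma cells, with 2 myeloid, 5 endothelial and 3 muscle genes among them. They were selected on counts measured in these same 22 tumours and taken by gene symbol from the deposited count table, 10 of 58735 genes, and all 10 had enough counts to be tested. The results in view when they were proposed include lower LAPTM5 and CD14 under RMC-7977 and the unusual composition of Trametinib replicate 4. Their levels and differences are therefore given as a description, with standard errors but without p-values.

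H2110 is a human lung adenocarcinoma cell line, and its genotype is labelled WT in every sample. Tumours were grown in a host to about 300 mm3, dosed by mouth for 3 days and collected for sequencing of total RNA in strand-specific libraries. The 5 groups were Vehicle (6 tumours), RMC-7977 at 10 mg/kg, RMC-4550 at 30 mg/kg, Trametinib at 0.3 mg/kg and Cobimetinib at 3 mg/kg (4 tumours each). RMC-7977 inhibits active RAS proteins, RMC-4550 inhibits the phosphatase SHP2, and Trametinib and Cobimetinib inhibit the kinases MEK1 and MEK2, so that the compounds act at different steps of RAS signalling and doses differ between them. The sources used here name neither the host species, its strain and age, nor any step that separated host from human reads. The labels name separate tumours but not separate animals. Tumours of the same animal would not be independent, and the standard errors may then be too small. The spread between tumours may also be technical in part.

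A xenograft is a mixture. The carcinoma cells are human, while the blood vessels, macrophages, fibroblasts and neighbouring muscle belong to the host, and reads from a host transcript can align to the human gene where the sequences are alike. Myeloid cells are recruited into tumours as macrophages and monocytes, endothelial cells line the vessels that feed the tumour, and skeletal muscle can lie beside a tumour under the skin. A marker counted in a bulk tumour can come from any cell that makes the RNA, carcinoma cells included, and fewer cells of a type and less RNA per cell cannot be told apart.

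Total counts were 7761987 to 17265754 per tumour. Levels are given as CPM, a gene's counts relative to a common library total, after TMM scaling of library sizes. Of 8 markers of lung adenocarcinoma epithelium 5 were abundant in every tumour, with EPCAM at 290 to 518 CPM, KRT8 at 848 to 2395 CPM and KRT19 at 470 to 1859 CPM, besides KRT18 and CDH1. The other 3, NKX2-1, SFTPB and NAPSA, which mark the lung lineage, had medians of 2.88, 1.06 and 1.14 CPM. Trametinib replicate 4 stood apart, since detected genes there had 12 counts more often than any other number, against 4 counts in RMC-7977 replicate 3 and 1 in the other 20 libraries, and ribosomal protein genes took 25.0% of its counts against at most 9.23% elsewhere. Fold changes and counts of calls that rest on it are given with and without it.

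Lists of other known markers of the 3 tissues were in part scarce and in part well expressed outside Trametinib replicate 4. Under 1 CPM in each of the other 21 tumours were 12 of 20 other myeloid, 9 of 13 other endothelial and 13 of 20 other muscle genes, and the remaining 8, 4 and 7 reached 1 CPM in at least 1 of them. Among the latter MRC1 had 2.30 to 60.0 CPM, LCP1 15.8 to 54.4, PECAM1 5.15 to 48.4 and TNNT1 13.1 to 55.2. Among scarce myeloid genes, C1QA, a subunit of complement C1q, had no count in any tumour, and CD68, LYZ and AIF1 reached at most 0.129, 0.170 and 0.163 CPM. Of the scarce endothelial genes ROBO4 had no count in any tumour and KDR, the VEGF receptor of vessels, reached at most 0.266 CPM. Of the scarce muscle genes the skeletal actin ACTA1 reached at most 0.810 CPM and the fast myosin heavy chain MYH4 had no count in the other 21 tumours. The 10 genes are called marker genes for their known roles.

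The sequence just upstream of the start sites of LAPTM5 and CD14 is shown, since these myeloid members are the ones whose levels under RMC-7977 are described first. The windows are the 250 bases before the RefSeq start on GRCh38.p14, written 5′ to 3′ on the gene's own strand (minus for both). They lie at chr1:30757775-30758024 for LAPTM5 and at chr5:140633176-140633425 for CD14, the latter inside the longer span that the count table gives for that gene. Capitals mark GGAAG, the core letters bound by transcription factors of the ETS family, and its reverse complement CTTCC.
LAPTM5: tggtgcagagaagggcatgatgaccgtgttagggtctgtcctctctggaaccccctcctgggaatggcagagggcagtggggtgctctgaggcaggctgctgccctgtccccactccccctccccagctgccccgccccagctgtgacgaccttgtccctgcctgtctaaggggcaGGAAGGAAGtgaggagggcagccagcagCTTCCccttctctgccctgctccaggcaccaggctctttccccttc
CD14: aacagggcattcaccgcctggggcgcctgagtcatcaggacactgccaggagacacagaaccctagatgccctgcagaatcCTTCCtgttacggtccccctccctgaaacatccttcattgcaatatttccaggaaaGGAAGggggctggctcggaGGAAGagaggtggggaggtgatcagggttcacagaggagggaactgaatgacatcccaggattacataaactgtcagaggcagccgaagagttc
Each window held 3 matches, 2 on the gene's strand and 1 on the other, and in LAPTM5 the matches on the gene's strand overlapped by 1 base. Of the upstream windows of all genes in the RefSeq table, 65.1% held at least 1 match and 11.9% held at least 3. A match describes the letters and is not a measured binding site. Windows were found for 7 of the 10 genes, the others being CLDN5, CDH5 and VWF. In the windows not shown, EGFL7 held 1 and 4 matches, TEK 2 and 1, NEB 1, MB 1, 0 and 0, and TTN 0. A link between matches and the levels under a drug was not tested.

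LAPTM5 encodes a lysosomal membrane protein of blood cells (ENSG00000162511, hg38 chromosome 1, 30732469 to 30757820, minus strand). Under Vehicle it lay between 0.805 and 8.59 CPM with a median of 5.78 CPM (10 to 146 counts). Under RMC-7977 the 4 tumours had 0.0953, 0.396, 1.02 and 0.0692 CPM, which rest on 1, 5, 12 and 1 counts. Under RMC-4550 they had 0.430, 0.901, 0.958 and 1.34 CPM. The Vehicle group was split, with replicate 2 at 0.805 CPM, below RMC-7977 replicate 3 and below 3 of the 4 RMC-4550 tumours, and the other 5 Vehicle tumours at 3.11 CPM or more. Under Trametinib the values were 7.31, 2.93, 4.64 and 5.28 CPM, within the Vehicle range. Under Cobimetinib they were close together at 3.04, 2.86, 2.18 and 2.76 CPM, also within that range. The group means were 5.403 ± 3.16 CPM with Vehicle (SD, n = 6), 0.395 ± 0.442 with RMC-7977, 0.906 ± 0.371 with RMC-4550, 5.04 ± 1.81 with Trametinib and 2.71 ± 0.375 with Cobimetinib (SD, n = 4 each). For these drugs in that order, the log2 fold changes against Vehicle were −3.76 ± 0.66, −2.55 ± 0.59, −0.10 ± 0.52 and −0.99 ± 0.54 (SE). Both MEK inhibitor groups lay entirely above both the RMC-7977 and the RMC-4550 groups, with log2 differences that ran from −1.56 ± 0.61 for RMC-4550 against Cobimetinib to −3.65 ± 0.68 for RMC-7977 against Trametinib. Of all genes tested, 2.92% (RMC-7977) and 1.72% (RMC-4550) lay entirely below Trametinib in this way. Below Cobimetinib it was 4.73% and 3.9%.

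CD14 encodes the co-receptor for bacterial lipopolysaccharide on monocytes and macrophages (ENSG00000170458, chromosome 5, 140631728 to 140633701, minus strand). Under Vehicle it lay between 7.97 and 16.9 CPM with a median of 11.9 CPM. Under RMC-7977 the values were 4.39, 7.13, 7.05 and 6.09 CPM. All 4 RMC-7977 tumours lay below all 6 Vehicle tumours, as 1.9% of all genes tested did, and the nearest of them, at 7.13 and 7.97 CPM, were close. Under RMC-4550 the values were 6.02, 11.8, 11.9 and 8.01 CPM, and under Cobimetinib 14.7, 11.2, 5.78 and 10.7 CPM. Both of these groups overlapped Vehicle. Under Trametinib the first 3 tumours had 11.2, 8.69 and 8.14 CPM and replicate 4 had 1.60 CPM, the lowest of all 22. The log2 fold changes against Vehicle were −0.96 ± 0.36 (RMC-7977), −0.34 ± 0.35 (RMC-4550), −0.67 ± 0.36 (Trametinib) and −0.18 ± 0.35 (Cobimetinib). Without Trametinib replicate 4 the Trametinib value was −0.40 ± 0.29, and all RMC-7977 tumours then lay below all Trametinib tumours as well, as 6.12% of genes did.

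**Figure D1:**
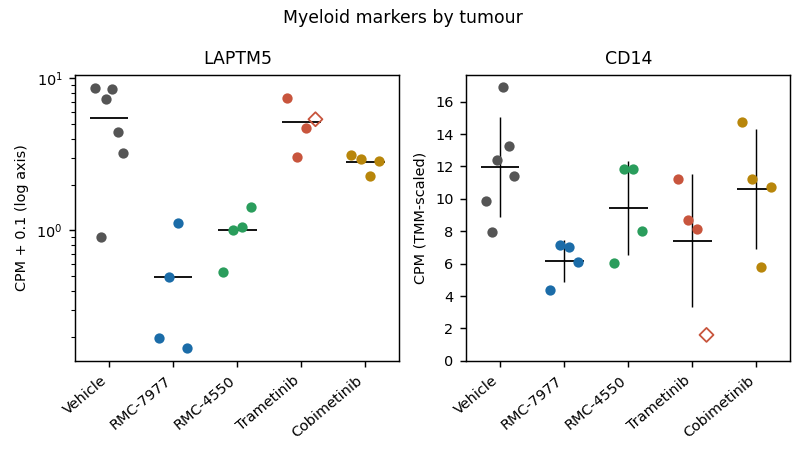
LAPTM5 (CPM + 0.1, log axis) and CD14 (CPM, linear axis) in each of the 22 tumours by group; horizontal bars are group means, vertical bars the SD (drawn for CD14) and the open diamond is Trametinib replicate 4. LAPTM5 is low in all RMC-7977 and RMC-4550 tumours and in 1 Vehicle tumour, and CD14 in RMC-7977 lies just below the Vehicle range.

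Other genes of the myeloid list were divided in direction under RMC-7977. Of the 20 other genes 8 had enough counts to be tested, and against Vehicle 0 of the 8 passed under any drug, neither by the quasi-likelihood test of edgeR, adjusted over all genes after Benjamini and Hochberg, nor by DESeq2. At an unadjusted p under 0.05, the edgeR test took 2 of the 8 with RMC-7977, 2 with RMC-4550, 1 with Trametinib and 1 with Cobimetinib, where 10.3%, 4.24%, 18.8% and 3.3% of all genes passed, and without Trametinib replicate 4 again 2, 2, 1 and 1, where 16.7%, 7.91%, 7.16% and 6.42% did. Under RMC-7977 their median log2 fold change was −0.22, with 5 of 8 below 0, beside −0.0056 over all genes tested. ITGB2, the beta chain of leukocyte integrins, was at 10.8 ± 4.04 CPM under Vehicle, 4.46 ± 2.47 under RMC-7977 and 4.32 ± 1.61 under RMC-4550. All 4 RMC-4550 tumours lay below all Vehicle tumours, with the nearest at 5.671 and 5.795 CPM. Groups did not overlap in either direction for 1.42% of genes there. Trametinib tumours had 4.67, 3.72, 6.92 and 23.04 CPM of ITGB2, the last being replicate 4, and Cobimetinib tumours 4.91, 10.1, 5.44 and 12.9 CPM. MRC1, the mannose receptor of macrophages, had its highest mean under RMC-4550 (42.0 ± 16.3 CPM), with 12.6 ± 14.5 under Vehicle and 3.81 ± 0.511 under Cobimetinib, but Vehicle replicate 2 alone had 41.5 CPM (adjusted p of edgeR's quasi-likelihood test = 0.791 for RMC-4550 against Vehicle). RMC-4550 tumours, at 21.2 to 60.0 CPM, all lay above the Cobimetinib tumours at 3.13 to 4.36 CPM, as 4.4% of genes did. DESeq2 called MRC1 higher against Cobimetinib under both RMC-7977 and RMC-4550. In these pairs edgeR called 0 of the 8 from all tumours. Without Trametinib replicate 4 it called 1, higher in RMC-4550 against Cobimetinib. LCP1, an actin-bundling protein, was at 26.7 ± 14.7 CPM under Vehicle and 33.4 ± 11.1 under RMC-7977. CYBB, a subunit of the phagocyte NADPH oxidase, was at 3.30 ± 0.708 and 2.92 ± 0.749 CPM. The summed level of the 22 genes of the list, members included, was 64.4 to 94.7 CPM under Vehicle and 69.9 to 92.7 CPM under RMC-7977, so the sum did not separate these groups, and without the members it was 44.6 to 76.2 and 63.7 to 88.2 CPM. The part of other cells in the LAPTM5 and CD14 values was not tested.

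CLDN5 and EGFL7 were the abundant endothelial members. CLDN5 encodes claudin-5, a tight-junction protein of vessels that some epithelia also make (ENSG00000184113, chromosome 22, 19523024 to 19527545, minus strand). Vehicle tumours were spread widely, from 19.5 through a median of 62.1 to 166.9 CPM, a highest value 8.57 times the lowest. Under RMC-7977 the tumours had 9.72, 22.5, 56.5 and 43.6 CPM, and under RMC-4550 8.60, 36.6, 21.3 and 19.5 CPM. Under Trametinib they had 97.9, 27.7, 30.4 and 88.6 CPM, and under Cobimetinib 38.1, 85.5, 78.3 and 76.6 CPM. Every drug group overlapped Vehicle, and the RMC-4550 tumours all lay below the Cobimetinib tumours, as for 3.9% of all genes tested. The log2 fold changes against Vehicle were −1.31 ± 0.58 (RMC-7977), −1.93 ± 0.59 (RMC-4550), −0.42 ± 0.56 (Trametinib) and −0.23 ± 0.55 (Cobimetinib).

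EGFL7 encodes a secreted protein of endothelial cells and hosts the microRNA gene MIR126 in an intron (ENSG00000172889, chromosome 9, 136658856 to 136672678, plus strand). It was the steadiest member across groups. Vehicle tumours ran from 28.8 through a median of 47.7 to 62.1 CPM. The group means were 46.9 ± 13.4 CPM for Vehicle (n = 6), 42.4 ± 8.68 for RMC-7977, 52.0 ± 5.503 for RMC-4550, 45.9 ± 5.70 for Trametinib and 52.9 ± 8.07 for Cobimetinib (SD, n = 4 each). Its log2 fold changes against Vehicle stayed between −0.15 ± 0.20 under RMC-7977 and 0.17 ± 0.20 under Cobimetinib. Trametinib replicate 4, at 51.7 CPM, was not apart from the others for this gene.

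CDH5, VWF and TEK, the vessel genes with the most restricted known expression of the 5, were barely counted outside Trametinib replicate 4. CDH5 encodes VE-cadherin, the adhesion molecule of endothelial junctions (ENSG00000179776, chromosome 16, 66366622 to 66404786, plus strand). It ran from 0.371 through a median of 0.760 to 1.96 CPM under Vehicle (5 to 25 counts). The values were 0.572, 0.634, 0 and 0.415 CPM for RMC-7977, 0, 0.579, 1.33 and 0.773 for RMC-4550, and 0.484, 1.16, 0.680 and 1.44 for Cobimetinib. Under Trametinib they were 1.21, 0.798, 0.733 and 33.4 CPM. The last of these, 209 counts in replicate 4, was 17.0 times the next highest of all tumours.

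VWF encodes von Willebrand factor, a clotting protein stored by endothelial cells (ENSG00000110799, chromosome 12, 5948874 to 6124770, minus strand). Under Vehicle it ran from 0.640 through a median of 1.08 to 3.14 CPM. RMC-7977 tumours had 3.05, 3.49, 1.19 and 2.35 CPM, with replicate 3 near the Vehicle median and the other 3 in the upper part of the Vehicle range or just above it, RMC-4550 tumours 0.860, 2.25, 1.03 and 1.12 CPM, and Cobimetinib tumours 1.45, 0.851, 1.16 and 0.815 CPM. The Trametinib tumours had 0.979, 0.798, 2.04 and 24.5 CPM. TEK encodes TIE2, the receptor of the angiopoietins (ENSG00000120156, chromosome 9, 27109141 to 27230175, plus strand). It reached at most 0.889 CPM, 14 counts, in the 21 tumours and 8.32 CPM, 52 counts, in Trametinib replicate 4.

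The Trametinib fold changes of these 3 genes rested on that library. Against Vehicle they were 3.25 ± 0.92 for CDH5, 2.22 ± 0.70 for VWF and 2.08 ± 0.79 for TEK on the log2 scale. Without replicate 4 they were −0.04 ± 0.71, −0.25 ± 0.49 and −0.13 ± 0.67. In the other 3 drugs the log2 fold changes of these genes were between −1.17 ± 1.06 and 0.77 ± 0.71, with standard errors of 0.71 or more. Those errors were 0.42 to 0.71 without replicate 4.

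**Figure D2:**
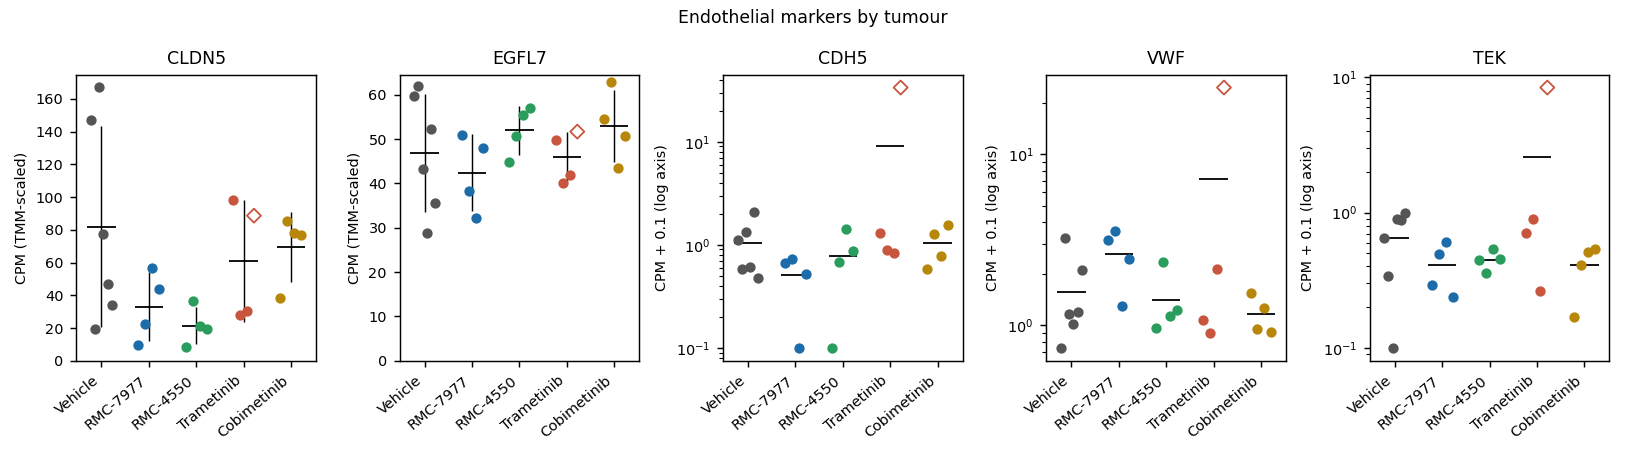
The 5 endothelial members in each of the 22 tumours by group, CLDN5 and EGFL7 in CPM on a linear axis and CDH5, VWF and TEK as CPM + 0.1 on a log axis; horizontal bars are group means, vertical bars the SD (linear panels) and the open diamond is Trametinib replicate 4. CDH5, VWF and TEK are high in that tumour alone, at 33.4, 24.5 and 8.32 CPM, while CLDN5 and EGFL7 are not.

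Among the 13 other endothelial genes of the list 4 were tested, and PECAM1, an adhesion molecule of endothelial cells and platelets, was lower under RMC-7977. It was the 1 of the 4 that edgeR called there, where 0.448% of all genes tested were called lower, and 1.59% without Trametinib replicate 4. Vehicle tumours had 17.0 to 48.4 CPM with a median of 29.01 CPM, and RMC-7977 tumours had 5.15, 5.94, 19.5 and 7.12 CPM. RMC-7977 replicate 3 lay inside the Vehicle range and the other 3 below it. The mean fell from 30.8 ± 11.02 CPM (SD, n = 6) to 9.42 ± 6.75 (SD, n = 4), a log2 fold change of −1.71 ± 0.36 (edgeR quasi-likelihood adjusted p = 0.0235, and 0.00765 without Trametinib replicate 4). Without RMC-7977 replicate 1, 2 or 4 the edgeR adjusted p for PECAM1 was 0.121, 0.116 and 0.0973, and without Vehicle replicate 5 or 7 it was 0.0541 and 0.0533. Under RMC-4550, Trametinib and Cobimetinib PECAM1 was at 29.4 ± 4.82, 35.8 ± 15.6 and 23.5 ± 6.15 CPM, and these values did not pass against Vehicle. By edgeR's test at an unadjusted p under 0.05, 0 of the 4 tested genes passed under these 3 drugs, beside 4.24%, 18.8% and 3.3% of all genes. Without Trametinib replicate 4 it was 1 under Trametinib, beside 7.16% of all genes. DESeq2 called PECAM1 lower under RMC-7977 and 0 of the 4 under the others. ENG, a co-receptor for TGF-beta, MMRN2, a matrix protein of vessels, and SOX18, a transcription factor of vessel development, had log2 fold changes of −0.24 ± 0.53, −0.35 ± 0.43 and −0.22 ± 0.51 under RMC-7977 and did not pass under any drug. The summed level of the list was 111 to 261.7 CPM under Vehicle and 79.0 to 115.4 CPM under RMC-7977. Without the members it was 25.6 to 52.7 and 13.8 to 24.9 CPM, sums of which PECAM1 was the most abundant gene.

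MB encodes myoglobin, the oxygen-binding protein of striated muscle that some carcinomas also make (ENSG00000198125, chromosome 22, 35606764 to 35637951, minus strand). Under Vehicle it lay between 38.7 and 82.4 CPM with a median of 48.9 CPM. Under RMC-4550 the tumours had 130.7, 88.4, 82.3 and 100 CPM, and under RMC-7977 73.7, 87.0, 103.4 and 66.3 CPM. These were the groups with the highest means for MB, and of the Vehicle tumours only replicate 1, at 82.4 CPM against at most 60.7 in the other 5, reached into them. Under Cobimetinib MB was at 47.1, 43.2, 69.4 and 58.3 CPM, and under Trametinib at 60.0, 48.0, 43.1 and 104.2 CPM, the last being replicate 4. The log2 fold changes against Vehicle were 0.62 ± 0.24 (RMC-7977), 0.90 ± 0.24 (RMC-4550), 0.24 ± 0.24 (Trametinib) and 0.02 ± 0.25 (Cobimetinib). All RMC-4550 tumours lay above all Cobimetinib tumours, by 0.88 ± 0.27, as for 4.4% of all genes tested. Without Trametinib replicate 4, which also changes the scaling a little, all RMC-4550 tumours lay above all Vehicle tumours (0.945% of genes), and both the RMC-7977 and the RMC-4550 tumours above the 3 remaining Trametinib tumours (5.14% and 4.54% of genes).

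TTN encodes titin, the giant spring protein of the sarcomere (ENSG00000155657, chromosome 2, 178525989 to 178830802, minus strand). Vehicle tumours ran from 29.2 through a median of 37.5 to 54.9 CPM. The drug groups had means of 46.8 ± 8.79 CPM for RMC-7977, 54.8 ± 10.7 for RMC-4550, 46.0 ± 18.2 for Trametinib and 55.8 ± 9.46 for Cobimetinib (SD, n = 4 each) against 39.6 ± 10.0 for Vehicle (n = 6). All overlapped Vehicle. Trametinib replicate 4 was the lowest of all 22 tumours at 19.5 CPM, and without it the Trametinib mean was 54.8 ± 5.20 CPM. The log2 fold changes were 0.24 ± 0.24, 0.47 ± 0.24, 0.22 ± 0.25 and 0.50 ± 0.24 in the order given, and 0.44 ± 0.19 for Trametinib without replicate 4.

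NEB encodes nebulin, which sets the length of thin filaments in skeletal muscle (ENSG00000183091, chromosome 2, 151485336 to 151734487, minus strand). Under Vehicle it ran from 1.53 through a median of 2.15 to 2.74 CPM (19 to 38 counts). RMC-7977 tumours had 1.52, 1.58, 0.340 and 1.31 CPM, the lowest group, and RMC-4550 tumours 3.96, 1.42, 1.77 and 2.39 CPM. Trametinib tumours had 4.22, 2.48, 3.09 and 6.72 CPM and Cobimetinib tumours 2.21, 3.79, 3.74 and 2.82 CPM. The RMC-7977 tumours lay below all tumours of both MEK inhibitors, by log2 differences of −1.77 ± 0.44 from Trametinib and −1.39 ± 0.43 from Cobimetinib, and overlapped Vehicle (−0.82 ± 0.40). The RMC-7977 tumours all lay below the Trametinib tumours for 2.92% of all genes tested, and below the Cobimetinib tumours for 4.73%. RMC-7977 replicate 3, with 4 counts, was the lowest of all tumours. Against Vehicle under RMC-7977 the fitted values of the muscle members thus differed in sign, above 0 for MB and TTN and below 0 for NEB.

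TTN and NEB share their loci with genes on the other strand. TTN-AS1, antisense to TTN, had 41 to 109 counts per tumour, and RIF1, antisense to NEB, had 518 to 2239. The libraries mark strand, but the sources used here do not say whether the counting used it, so reads from these partners may not have been told apart. AL049747.1, a transcript within an intron of MB, had 233 counts in Trametinib replicate 4 and 0 in 12 tumours. The VWF pseudogene VWFP1 had at most 2 counts.

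**Figure D3:**
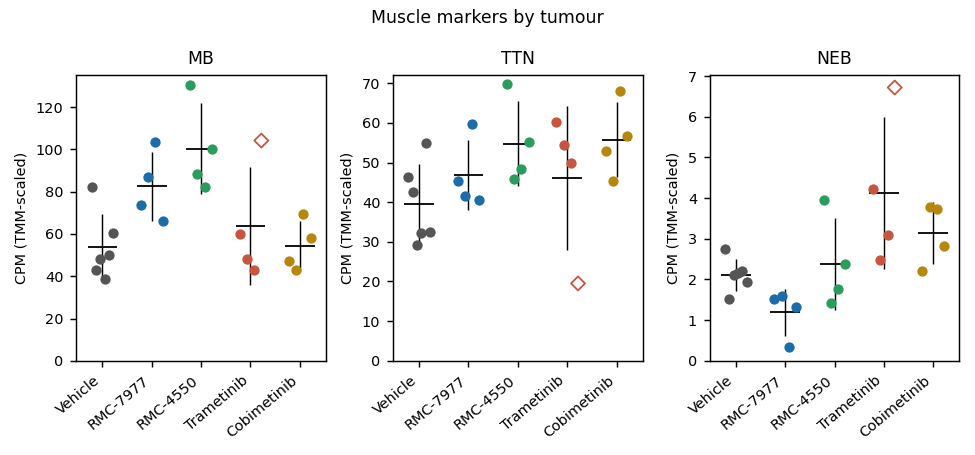
MB, TTN and NEB in CPM (linear axes) in each of the 22 tumours by group; horizontal bars are group means, vertical bars the SD and the open diamond is Trametinib replicate 4. MB is highest under RMC-4550 and RMC-7977, NEB lowest under RMC-7977, and replicate 4 of Trametinib is low for TTN and high for NEB.

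Of the 20 other muscle genes 6 were tested, and 0 of 6 passed against Vehicle under any drug by edgeR's quasi-likelihood test, with 4 of 6 at an unadjusted p under 0.05 under Trametinib, where 18.8% of all genes passed, and 0 under the other drugs. Without Trametinib replicate 4 it was 0 of 7 under Trametinib, where 7.16% of all genes passed. It was 2 of 7 under RMC-7977, beside 16.7% of all genes, and 0 under RMC-4550 and Cobimetinib, beside 7.91% and 6.42%. DESeq2 took 1 of them, MYLPF, a fast myosin light chain, as higher under Trametinib, where replicate 4 had 13.1 CPM and the other tumours at most 2.13. TNNT1, the slow troponin T, was at 28.8 ± 13.4 CPM under Vehicle and 61.6 ± 63.6 under Trametinib, where replicate 4 alone had 156 CPM. RYR1, the calcium release channel of skeletal muscle, was at 3.09 ± 0.701 CPM under Vehicle and 36.1 ± 64.6 under Trametinib, with 133 CPM in replicate 4 and 3.804 ± 1.03 CPM in the other 3. ATP2A1, the calcium pump of fast fibres, was at 24.2 CPM in replicate 4 and at most 6.64 CPM elsewhere. TNNI2, the fast troponin I, went the other way, at 0 in replicate 4 and 1.02 to 16.7 CPM elsewhere. The median log2 fold change of these genes for Trametinib against Vehicle was 1.15 with replicate 4, beside 0.05 without it over 7 tested genes.

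Set against each other per kilobase of gene model, the members differed in level by more than 2 orders of magnitude. In Vehicle tumours the means were 24.8 CPM per kb for MB, 23.9 for CLDN5, 18.4 for EGFL7, 6.35 for CD14, 1.65 for LAPTM5, 0.333 for TTN, 0.153 for CDH5, 0.142 for VWF, 0.113 for TEK and 0.0692 for NEB. Of neighbours in that order, only EGFL7 and CD14, and CD14 and LAPTM5, had Vehicle ranges that did not overlap. Abundant and scarce genes thus occurred within the endothelial and the muscle class.

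Over the 10 genes, few differences from Vehicle passed the threshold of 0.05 after adjustment. In RMC-7977 against Vehicle 1 member, LAPTM5, passed the threshold and was lower, where 0.448% of all genes tested were called lower and 0.748% in either direction. This contrast was in view when the genes were chosen, so nothing is read from that count. Without Trametinib replicate 4 it again was the 1 member called, with 1.59% of genes lower. With only these 2 groups in the fit 0 of 10 passed. At an unadjusted p under 0.05, edgeR's test took 4 of the 10 there, where 10.3% of all genes passed. Without Trametinib replicate 4 it took 5, where 16.7% did, and nothing is read from these counts. From all 22 tumours the median log2 fold change over the 10 was −0.82 beside −0.0056 over all genes, with 7 of 10 below 0. For RMC-4550, Trametinib and Cobimetinib against Vehicle 0 of 10 members passed edgeR's test, with 0.0283%, 0% and 0% of all genes called, and without Trametinib replicate 4 again 0, with 0.0612%, 0.00556% and 0.0111%. At an unadjusted p under 0.05 it took 3, 4 and 0 of the 10, where 4.24%, 18.8% and 3.3% of all genes passed, and without Trametinib replicate 4 it took 4, 1 and 1, where 7.91%, 7.16% and 6.42% did. The genes were chosen with earlier results of these data known, so nothing is read from these counts either. DESeq2 called 1, LAPTM5, under RMC-4550 and 0 under the others. All 10 members overlapped Vehicle in these comparisons, where the groups did not overlap for 1.42%, 1.17% and 1.48% of genes. The medians over the members were −0.25, 0.23 and −0.08, and the Trametinib median was −0.13 without replicate 4. The 4 comparisons share the Vehicle tumours, so likeness between them is not independent.

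**Figure D4:**
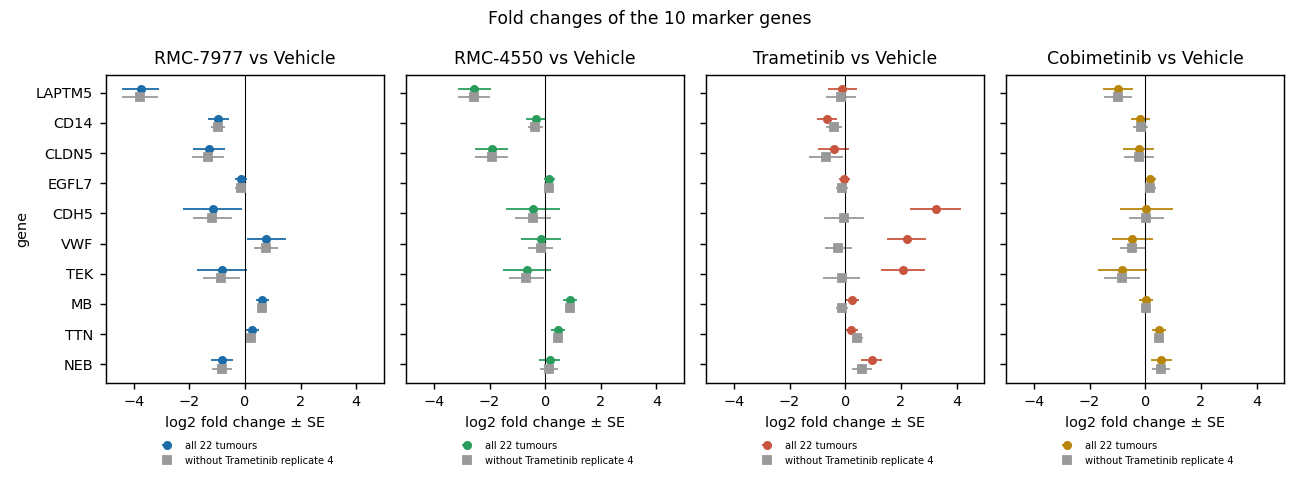
Log2 fold change of each of the 10 genes against Vehicle with its SE, 1 panel per drug, from all 22 tumours (coloured circles) and without Trametinib replicate 4 (grey squares). LAPTM5 is lowest under RMC-7977 (−3.76) and RMC-4550 (−2.55), and leaving out replicate 4 moves CDH5, VWF and TEK to near 0 under Trametinib, where the other members move by less and MB changes sign (0.24 to −0.12).

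Drug groups were also compared with each other. LAPTM5 was lower under RMC-7977 than under Trametinib and passed there, 1 of 10 members where 0.283% of genes were called lower, or 0.0834% without Trametinib replicate 4. The low RMC-7977 values of LAPTM5 were in view when the genes were chosen, so nothing is read from this count or from that against Cobimetinib. At an unadjusted p under 0.05, edgeR's test took 4 of 10 members for RMC-7977 against Trametinib, beside 18.2% of genes. Without Trametinib replicate 4 it took 3, beside 9.33%, and nothing is read from these counts. Without RMC-7977 replicate 1, 2 or 4 LAPTM5 did not pass against Trametinib, and without Trametinib replicate 1, 2 or 3 the count of members called was 2, 3 and 4. Over all alternatives tried, 0 to 1288 of all genes were called in that comparison. In RMC-7977 against Cobimetinib 0 of 10 passed edgeR's test from all tumours, with 0.278% of genes called, 3 members at an unadjusted p under 0.05 beside 7.45% of genes (5 members and 12.6% without Trametinib replicate 4), and 2 called by DESeq2. Without Trametinib replicate 4, or without RMC-7977 replicate 3, 1 member passed there, LAPTM5 in the former case, with 0.345% of genes lower. In the other 4 pairs 0 of 10 members passed edgeR's test with or without that library. Genes called there were 0.0906% for RMC-7977 against RMC-4550, 0.0283% for RMC-4550 against Cobimetinib and 0% for Trametinib against RMC-4550 or Cobimetinib from all tumours, and 0.584%, 0.501%, 0% and 0% without it. An unadjusted p under 0.05 was reached by 1, 3, 6 and 3 members in these 4 pairs, in the order RMC-4550 against RMC-7977, Cobimetinib and Trametinib and then the pair of MEK inhibitors, beside 7.39%, 6.2%, 12.3% and 16.7% of all genes. Without Trametinib replicate 4 it was reached by 2, 3, 2 and 0 members, beside 13%, 11%, 7.08% and 9.17% of genes. Nothing is read from these counts, since the genes were chosen with earlier results of these data known. DESeq2 called 1 member in these pairs, LAPTM5 in RMC-4550 against Trametinib. Groups that did not overlap were more common. Against Trametinib all RMC-7977 tumours were lower for LAPTM5, CDH5 and NEB (2.92% of genes), and against Cobimetinib for LAPTM5 and NEB (4.73%). RMC-4550 tumours were all lower than Trametinib tumours for LAPTM5 (1.72%), and lower than Cobimetinib tumours for LAPTM5 and CLDN5 (3.9%) but higher for MB (4.4%). Between RMC-7977 and RMC-4550, and between the MEK inhibitors, the groups overlapped for all 10 genes, and did not for 8% and 7.01% of all genes.

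Trametinib replicate 4 held the highest level of 4 members and the lowest of 2. CDH5, VWF, TEK and NEB were highest there, at 49.2, 21.8, 21.01 and 3.06 times the median of the other 21 tumours. CD14 and TTN were lowest there, at 0.162 and 0.403 times that median. Over all genes tested, 24.8% were highest and 38.5% lowest in this library. Among the 27600 genes with any count whose median in the other tumours was under 1 CPM, as for CDH5 and TEK, 37.0% were highest in it.

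In that library at least 1 scarce marker of every list but the epithelial one reached 1 CPM, though not all of each set. The epithelial list held no gene under 1 CPM in each of the other 21 tumours, so it could not be counted in this way. Its gene SFTPB was highest in replicate 4, at 30.4 CPM against at most 28.98 CPM elsewhere. Of 13 endothelial genes outside the 10, 9 stayed under 1 CPM in each of the other 21 tumours, and 6 of these 9 reached at least 1 CPM in replicate 4, with EMCN, a sialomucin of veins and capillaries, at 23.0 CPM, PLVAP, a protein of fenestrated vessels, at 22.6 CPM, and ERG, an endothelial ETS factor, at 14.4 CPM. KDR and ESAM were at 0 in it. The same held for 10 of 13 such muscle genes, with the myosin-binding protein MYBPC2 at 36.2 CPM, while ACTA1 was at 0. Of 12 such myeloid genes 5 did so, with the signalling adaptor TYROBP at 6.40 CPM, and CD68 and LYZ were at 0. As background, of all genes with any count that stayed under 1 CPM in each of the other 21 tumours 33.2% reached 1 CPM in replicate 4, and 19.9% with the genes at 0 throughout included. Of the other lists, 7 of 9 such fibroblast and pericyte genes, 5 of 6 adipocyte genes, 2 of 7 lymphoid genes and 1 of 6 red blood cell genes reached 1 CPM there. The red blood cell gene was SLC4A1, the anion exchanger, at 53.0 CPM, while HBB, the beta globin, had no count in any tumour. In sums over each list with its members, replicate 4 had 357 CPM of endothelial genes against 79.0 to 261.7 in the other tumours, and 582 CPM of muscle genes against 113 to 245. Its myeloid sum of 104 CPM lay within the range of the others (64.4 to 108), while without the members, of which CD14 was lowest there, it was the highest at 97.3 CPM against 44.6 to 95.3. Their part in the values of CDH5, VWF and TEK was not tested, and the unusual counts of this library apply to all of them.

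**Figure D5:**
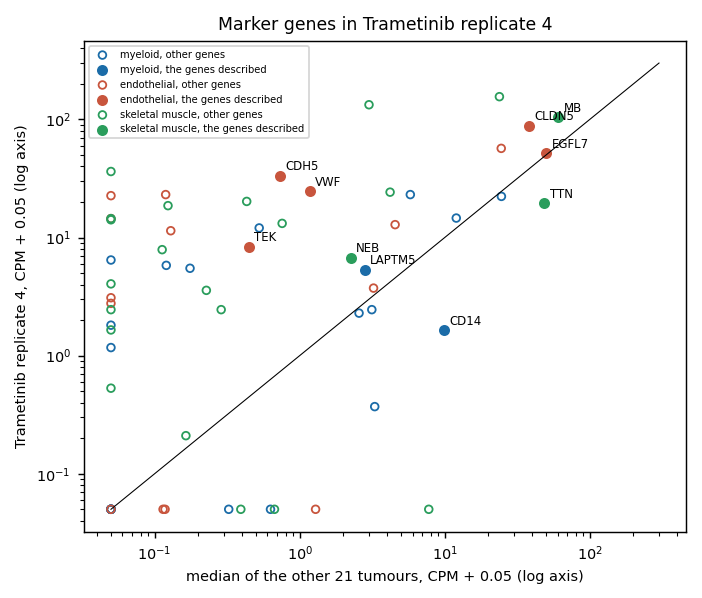
Genes of the myeloid, endothelial and skeletal muscle lists, each as CPM + 0.05 in Trametinib replicate 4 (vertical, log axis) against its median in the other 21 tumours (horizontal, log axis); filled points are the 10 members and the line marks equal levels. CDH5, VWF and TEK lie far above the line with many genes near 0 in the other tumours, while EGFL7 lies on it and CD14 and TTN below it.

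Over the 21 other tumours the members of a class did not follow each other closely. The Spearman correlation of log2 CPM had a median of 0.04 over the 14 pairs of the same class (−0.49 to 0.65) and of 0.07 over the 31 pairs of different classes (−0.65 to 0.66). The highest in the same class was LAPTM5 with CD14 (0.65 over 21 tumours, and 0.50 over 22), and LAPTM5 with CLDN5 was as high (0.66). Taken within groups, Pearson's r was 0.55 and 0.72 for these pairs. The points share libraries, depth and drug groups, so these are descriptions of these tumours. With Trametinib replicate 4 the Pearson correlations of CDH5 with VWF, CDH5 with TEK and VWF with TEK were 0.55, 0.61 and 0.49, and without it they were −0.19, 0.02 and −0.34.

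For the member of highest mean CPM per kb over all 22 tumours in each class, the most similar genes were not on the list of that class. These members were CD14 (4.97 CPM per kb), EGFL7 (18.8, with CLDN5 at 16.4, although CLDN5 was higher over the Vehicle tumours alone) and MB (32.0). By Spearman's rho over 21 tumours, CD14 was most like TOMM40, a mitochondrial import channel (0.93), PRPF19, a splicing factor (0.92), and TEAD4, a partner of YAP (0.89). EGFL7 was most like GATA6-AS1 (0.74), F8A2 (0.72) and FAM21EP (0.71), which had mean levels under 1 CPM. MB was most like SLC50A1, a sugar transporter, CSNK1A1, a casein kinase, and LINC01133, with rho of 0.87, 0.87 and 0.86.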

How the data were processed

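The authors deposited 1 table of raw counts, with a row per gene and a column for each of 22 tumours. Genome build hg38 is named in the submitters' processing notes, along with fastp, HISAT2 (2.0.5) for alignment and featureCounts (1.5.0-p3), besides edgeR (3.22.5) and DESeq2 (1.20.0). The positions and lengths of the 10 members equalled those of GENCODE 29. From these counts, in R (4.3.3), edgeR (4.0.16) kept 17652 genes with its filter at a minimum count of 10 (99.718% of counts). Scaling was by TMM. A quasi-likelihood model with 1 mean per group was fitted to all 22 tumours, and the 10 comparisons were 2-sided with Benjamini-Hochberg adjustment over all genes tested and a threshold of 0.05. Fold changes are given with their SE, and log2 CPM used a prior count of 2. The totals of 7761987 to 17265754 counts limit the precision of scarce genes, and no molecular identifiers are named, so counting error is a lower bound.

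Groups came from the sample labels, 6 Vehicle and 4 tumours per drug. The 10 members and the 8 marker lists (104 genes) were chosen with earlier results of these data known. Besides the members, the text names the 4 genes of highest mean CPM in the myeloid, endothelial and muscle lists, list genes past the threshold against Vehicle, overlapping genes, and the 3 genes most correlated with the member of highest mean CPM per kb over all 22 tumours in each class. Other list genes were named after their values were seen, as examples. The labels do not say what the replicate number stands for. Same-numbered tumours deviated together from their group means, with every correlation over 0.1, between Vehicle and RMC-4550 (0.170 to 0.711, 3 pairs) and between Vehicle and Trametinib (0.136 to 0.202, 3 pairs) but between no other 2 groups. The alternatives tried were RLE scaling, scaling by library size, DESeq2 (1.42.0), fits of only the 2 groups, a replicate block, a minimum mean CPM of 1 or no filter, and leaving out Trametinib replicate 4, 4 libraries that stood apart, or each tumour in turn. The 4 libraries were Trametinib replicate 4, RMC-7977 replicate 3, Vehicle replicate 1 and RMC-4550 replicate 1. Of the genes tested, 10.5% were highest in Vehicle replicate 1 and 9.56% in RMC-4550 replicate 1. Procedures were tested on simulated data. RefSeq upstream windows of GRCh38.p14 were searched on both strands.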

Additional observations from a re-analysis of the deposited data

Results flagged for a closer look

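In 3 of the 50 combinations of a member and a group, 1 tumour lay far from the other tumours of its group, by the share of the group's range that its gap takes. All 3 were Trametinib replicate 4. CDH5 was at 33.4 CPM there, with the next tumour at 1.21 CPM and a gap of 0.986 of the range. VWF was at 24.5 CPM, with the next at 2.04 CPM and a gap of 0.948. TEK was at 8.32 CPM, with the next at 0.798 CPM and a gap of 0.922. Chance alone gives such a gap in about 1 of 20 groups, a rate that does not apply to these 3, since the composition of that library was in view when the genes were chosen.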

How the results depend on the processing

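From all 22 tumours 1 member was called in RMC-7977 against Vehicle, 1 in RMC-7977 against Trametinib (LAPTM5 in both) and 0 in the other 8 comparisons. RLE or library-size scaling, no filter and a mean CPM of at least 1 left each of these counts as it was. DESeq2 called 1 in RMC-4550 against Trametinib, 1 in RMC-4550 against Vehicle, 2 in RMC-7977 against Cobimetinib and 3 in RMC-7977 against Trametinib. With only the 2 groups compared, the counts were 1 in RMC-7977 against Cobimetinib, 0 against Trametinib and 0 against Vehicle. With the replicate block they were 0 in RMC-7977 against Trametinib and 0 against Vehicle, and the block changed no other count. Without the 4 libraries apart they were 1 in RMC-4550 against Cobimetinib, 1 against Trametinib and 1 against Vehicle, 2 in RMC-7977 against Cobimetinib, 2 against Trametinib and 3 against Vehicle (LAPTM5, CD14 lower and MB higher), and 1 in Trametinib against Vehicle (TTN). Leaving out 1 tumour gave 0 to 1 in RMC-7977 against Cobimetinib (1 without RMC-7977 replicate 3 or Trametinib replicate 4), 0 to 4 in RMC-7977 against Trametinib (0 without RMC-7977 replicate 1, 2 or 4) and 0 to 3 in Trametinib against Vehicle, where 2, 2 and 3 were called without Trametinib replicate 1, 2 and 3, with CDH5 and VWF among them each time. Leaving out 1 of these leaves replicate 4 as 1 of 3 Trametinib tumours. The causes of the other changes were not tested. Calls over all genes moved as well over the alternatives, from 0 to 2686 in Trametinib against Vehicle, 0 to 1288 in RMC-7977 against Trametinib and 2 to 1134 in RMC-7977 against Vehicle. Nothing is therefore read from these counts of members.

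LAPTM5 in RMC-7977 against Vehicle was called in 17 of 19 alternatives, with log2 fold changes of −4.78 to −3.40. The alternatives refit values that were in view when the genes were chosen, so nothing is read from that number of calls. Of the members called from all 22 tumours, no fold change of a call changed sign in any alternative run, while CDH5, VWF and TEK in Trametinib against Vehicle, called in some alternatives only, fell to −0.04, −0.38 and −0.13 in others. PECAM1 in RMC-7977 against Vehicle was called in 12 of 19 alternatives (−2.34 to −1.52, edgeR or DESeq2 adjusted p 6.93e-05 to 0.596), and not with the replicate block. KRT19, higher under RMC-7977 than under Vehicle at 0.91 ± 0.23 with edgeR adjusted p = 0.0612, was called in 5 of 19. The count of all genes called ranged over the alternatives from 2 to 1134 in RMC-7977 against Vehicle (132), 0 to 35 in RMC-4550 against Vehicle (5), 0 to 2686 in Trametinib against Vehicle (0), 0 to 8 in Cobimetinib against Vehicle (0), 8 to 192 in RMC-7977 against RMC-4550 (16), 0 to 1288 in RMC-7977 against Trametinib (72), 14 to 674 in RMC-7977 against Cobimetinib (49), 0 to 167 in RMC-4550 against Trametinib (0), 0 to 160 in RMC-4550 against Cobimetinib (5) and 0 to 537 in Trametinib against Cobimetinib (0). CDH5, TEK and, under RMC-7977, LAPTM5 and NEB rest on low counts, which limits the precision of their levels.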
